A study of Verbena bonariensis with 6 samples.

Results

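The morning clock MYBs of *Verbena bonariensis* leaves are described here: the clusters annotated as LATE ELONGATED HYPOCOTYL (LHY), CIRCADIAN CLOCK ASSOCIATED 1 (CCA1) or REVEILLE (RVE). The deposited table holds numbered transcript models, called clusters, that were placed in families of transcription factors or other regulators. A cluster was taken if the table placed it in the MYB family and the name of its best match in the NR protein database or in Swissprot held LHY, CCA1, REVEILLE, RVE or late elongated hypocotyl. This chose 48 of 9740 clusters, and 48 of the 624 clusters of the MYB family. The 48 clusters shared 14 NR best matches, of 3428 in the table. Gene names below are those of the best match in another species, with that species named.

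Leaves of 3-month-old seedlings of the cultivar Finesse, grown with a 16 h photoperiod, were sampled from control plants and from plants that spent 24 h at 4°C and a further 4 h at -4°C. The labels state biological replicates, and there were 3 libraries of each group. The labels name no transgene, and both groups shared cultivar, age and organ. The hour of day of either harvest is not given in the sources used here, so the effect of cold and that of the hour of day cannot be told apart for any value below. Growth temperatures before the treatment differ between the sources. They were 25°C by day and 16°C by night in the labels, and the study's methods for its cold treatment give higher ones for both.

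LHY and CCA1 are closely related MYB proteins that in Arabidopsis accumulate around dawn and repress genes of the evening, among them TOC1, also called APRR1. The REVEILLE proteins share their DNA-binding domain and bind the same short promoter element. In Arabidopsis RVE4, RVE6 and RVE8 activate genes of the afternoon and evening, while RVE1, RVE2 and RVE7 are mostly known as clock outputs, and RVE1 links the clock to auxin. The pseudo-response regulators APRR9, APRR7 and APRR5 repress LHY and CCA1 in turn, and LHY, CCA1, RVE4 and RVE8 are all known to act on the cold-induced CBF genes.

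The table held 722556 to 1213366 estimated read counts per library, out of 13076701 to 20695740 in the whole library, and the cold libraries were the shallower. Levels are given as normalized CPM, the counts relative to 1e+06 reads of a library in the table after scaling by edgeR's TMM factors. FPKM, which also divides by the length of the cluster, is used where 1 gene is set against another. Counts were tested for each cluster and also summed over all clusters of a best match, since reads may be divided between clusters of 1 gene, and the clusters and the sums were scaled separately. Scaling to whole-library totals in place of TMM lowered the median log2 fold change of all clusters by 0.23 and of all sums by 0.36. The names of the leaf regulators GLK1 or GLK2, YABBY, TCP4 and the stomatal FAMA, SPEECHLESS or MUTE were found with reads in every library. YABBY clusters summed to 40.9 to 46.8 CPM in control and 67.7 to 72.0 in cold, per whole library, and TCP4 clusters to 166 to 178 in control and 134 to 151 in cold. No cluster was named WOX5 or RHD6 or RSL, which mark roots, and the 2 clusters named for the floral APETALA3 or DEFICIENS summed to at most 1.88 CPM of the whole library. Clusters whose names hold AGAMOUS, which also catches agamous-like MADS proteins of other organs, were at 46.6 to 49.3 CPM in control libraries and at 66.7 to 73.6 CPM in cold ones, on the same scale. The part of these differences in the results was not tested.

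The LHY transcripts and most REVEILLE 6 transcripts moved in opposite directions. By edgeR's quasi-likelihood test, with p adjusted by Benjamini-Hochberg over 5004 clusters, 12 of the 35 member clusters tested were higher in cold, 7 were lower and 16 were not called. Over all clusters tested, 45.5% were called, 21.9% as higher and 23.6% as lower, beside 54.3% of the tested members called and 34.3% called higher. The tested members had a median log2 fold change of 0.42, and all clusters tested one of -0.14. Of the 312 tested clusters of the MYB family that are not members, 75 were higher and 82 lower. The other 13 members were too low to be tested, with no single count above 32.8, and 1 of them had no reads. Of the 13 summed best matches tested, 5 were higher, 6 lower and 2 not called. Matches named isoform X1 and X2, as for REVEILLE 6 and REVEILLE 7-like, were kept as separate sums. They may be isoforms of 1 protein, so 1 gene may stand in more than 1 of these sums. Over all 2296 sums, 72.3% were called, 34.6% as higher and 37.7% as lower. Control and cold libraries did not overlap in 77.8% of all sums tested and in 63.9% of all clusters tested. With whole-library totals the split over all sums was 642 higher and 1088 lower, against 795 and 866 with TMM, and the calls of the members' sums stayed 5 higher and 6 lower.

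**Figure D1:**
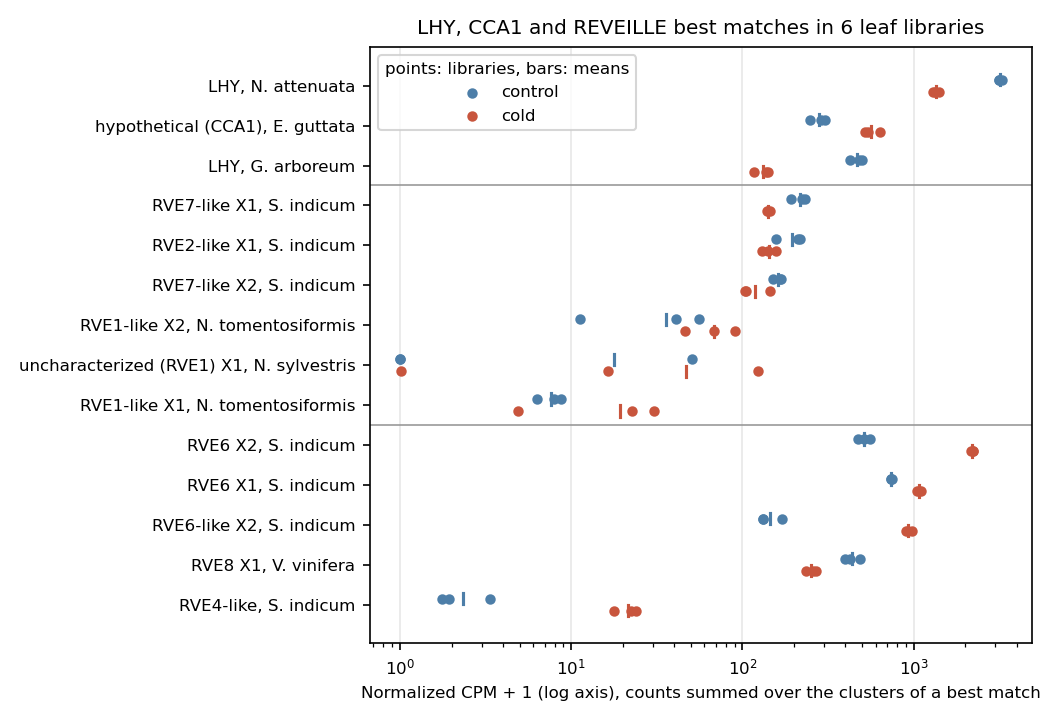
Summed level of each of the 14 best matches in the 6 libraries, as normalized CPM + 1 on a log axis. Points are libraries, short bars are means of 3, and lines divide LHY/CCA1 from REVEILLE 1/2/7 and REVEILLE 4/6/8. Both LHY matches lie lower in cold, while the 3 REVEILLE 6 matches lie higher.

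The LHY and CCA1 clusters were lower in cold as a group. Summed over 9 clusters of 3 best matches, they stood at 4070, 3817 and 3938 normalized CPM in control and at 2011, 2171 and 1935 in cold. The mean was thus 1.93-fold lower in cold, 3942 ± 126 against 2039 ± 120 (SD, n = 3). In FPKM the group was at 388 ± 18.5 in control and 141 ± 6.01 in cold. The 3 best matches may be separate genes or pieces of 1 gene, which the table cannot tell apart, and all 9 clusters carry CCA1 as Swissprot match and LHY as KEGG orthologue.

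The best match with the most counts was LHY of *Nicotiana attenuata*. Its 4 clusters summed to 3280, 3147 and 3154 normalized CPM in control and to 1330, 1401 and 1301 in cold. The highest cold library lay far below the lowest control library. This was a log2 fold change of -1.25 ± 0.04 (SE), with an adjusted p of 3.96e-08 by edgeR's quasi-likelihood test. In FPKM the sum was 326 ± 14.5 in control and 115 ± 4.04 in cold, the highest of the 14 best matches in both groups, although in cold REVEILLE 8 (112 ± 9.17) lay within its spread.

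The 4 clusters of this match fell unequally. Each carries a predicted coding stretch of 292 bases that runs to the 3′ end of the cluster, behind leading stretches of 169 to 979 bases. The longer of the pair that held most counts, Cluster-14918.125733 (1062 bases), was at 1742, 1681 and 1778 normalized CPM in control and 278, 474 and 489 in cold. It fell by 2.07 ± 0.22 on the log2 scale (adjusted p = 0.00089, edgeR). Cluster-14918.119746 (707 bases) was at 1335, 1199 and 1164 in control and 753, 674 and 676 in cold. It fell by 0.81 ± 0.08 on the log2 scale (adjusted p = 0.000672, edgeR). The first held 50.4%, 49.8% and 52.7% of the counts of the match in control and 21.4%, 34.9% and 38.5% in cold. The second held 38.6%, 35.5% and 34.5% in control and 57.9%, 49.6% and 53.2% in cold. The order of these clusters was therefore exchanged between the groups in every library, and this exchange was not itself tested. Cluster-14918.115010 was at 325, 460 and 386 normalized CPM in control and 240, 183 and 90.0 in cold, without overlap. Its log2 fold change was -1.19 ± 0.37 (adjusted p = 0.043, edgeR), and the call was lost without any 1 of control replicates 1, 2 and 3 or cold replicate 2, at adjusted p of 0.0704 to 0.117. The remaining cluster, of 461 bases, was low in all libraries and not called.

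LHY of *Gossypium arboreum* was matched by a single cluster, Cluster-14918.104363 (818 bases). Its summed level was 502, 424 and 481 normalized CPM in control and 141, 137 and 116 in cold. The highest cold library was far below the lowest control library. As a sum it fell, with a log2 fold change of -1.84 ± 0.11 (adjusted p = 1.61e-06, edgeR), and that of the cluster in its own fit was -1.97 ± 0.13 (adjusted p = 0.000113, edgeR).

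The other match of this group went up. A hypothetical protein of *Erythranthe guttata*, whose Swissprot match is CCA1, was covered by 4 clusters of 2219 to 2288 bases. Their sum was 288, 246 and 302 normalized CPM in control and 539, 633 and 518 in cold, so that all cold libraries were above all control libraries. The sum rose by 1.02 ± 0.11 on the log2 scale (adjusted p = 5.7e-05, edgeR). Per length it was the lowest of the 3 in control, at 8.96 ± 0.95 FPKM. In cold it was at 14.1 ± 1.38 FPKM, above the 11.2 ± 1.20 of LHY of *G. arboreum*.

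Only 1 of its 4 clusters was called as higher. Cluster-14918.105322 was at 80.1, 65.2 and 118 normalized CPM in control and 357, 430 and 339 in cold, and rose by 2.10 ± 0.26 on the log2 scale (adjusted p = 0.00152, edgeR). Cluster-14918.104364 was at 98.7, 77.8 and 102 in control and 49.7, 52.7 and 43.0 in cold, and fell by 0.94 ± 0.25 on the log2 scale (adjusted p = 0.025, edgeR). The lengths of Cluster-14918.105322 and Cluster-14918.104364 are 2219 and 2222 bases. The coding stretch of Cluster-14918.105322 starts at base 1836 and ends at base 1246 on the reverse strand. The first listed part of the coding stretch of Cluster-14918.104364 has the same start and end. That of Cluster-14918.105322 is in 1 part (score 392 against the best match) and that of Cluster-14918.104364 in 2 parts (score 385). Clusters of nearly the same length thus moved in opposite directions. Cluster-14918.105322 held 26.4%, 24.7% and 36.5% of the counts of the match in control and 67.8%, 70.1% and 67.0% in cold. The fall of Cluster-14918.104364 lost its call without control replicate 1 or 3 or cold replicate 1 or 3, at adjusted p of 0.0543 to 0.0827.

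**Figure D2:**
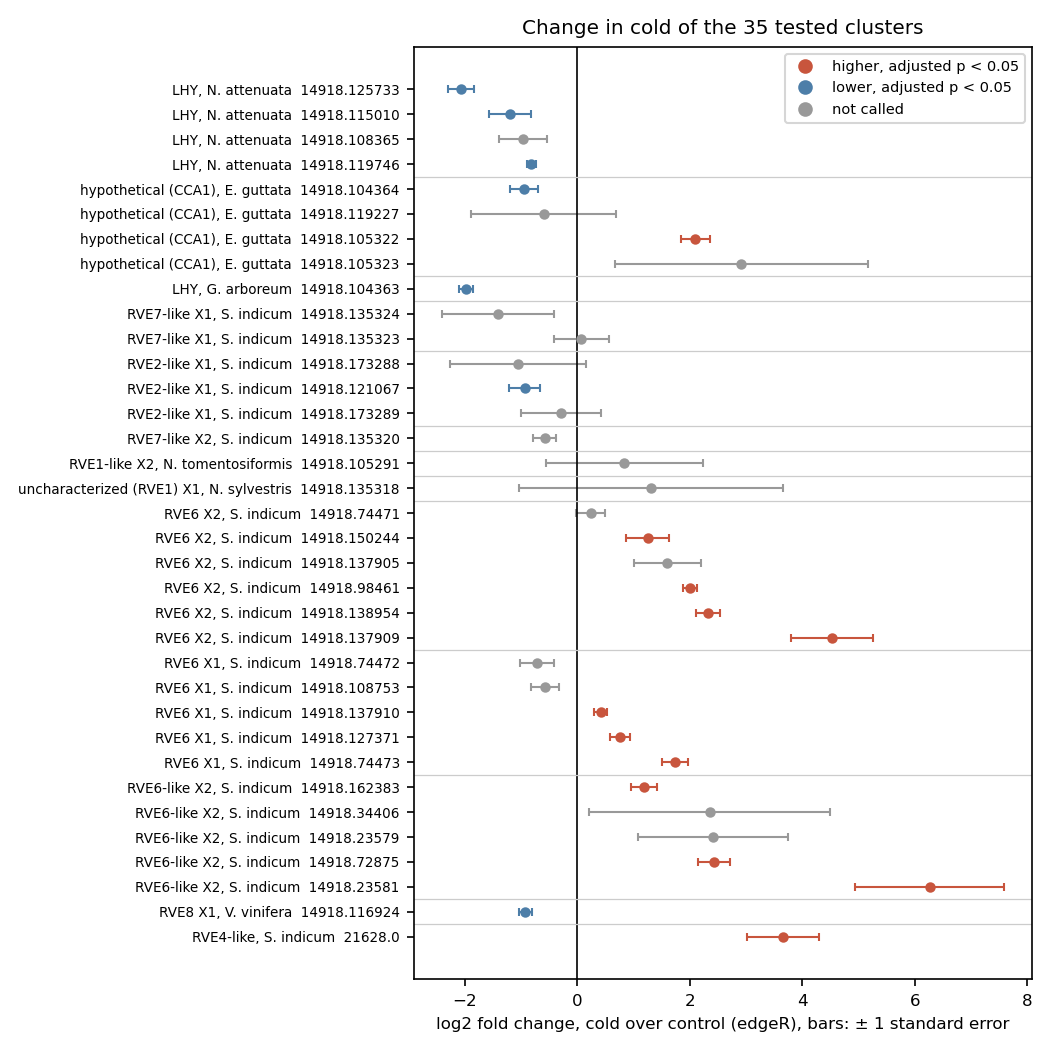
Log2 fold change, cold over control, of the 35 tested clusters, grouped by best match, with bars of 1 standard error. Red and blue points passed an adjusted p of 0.05 as higher or lower, and grey points were not called. The 4 clusters of LHY of *N. attenuata* lie left of 0, and the E. guttata match has called clusters on both sides.

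The activator-type REVEILLEs, the 21 clusters of 5 best matches named REVEILLE 4, 6 or 8, were mostly higher in cold. Of the 18 tested, 11 rose, 1 fell and 6 were not called. Their summed level was 1787, 1850 and 1874 normalized CPM in control and 4445, 4540 and 4474 in cold. The mean was 2.44-fold higher in cold, 1837 ± 44.8 against 4486 ± 48.7. In FPKM the direction of this sum was the opposite, 384 ± 22.6 in control and 289 ± 7.71 in cold, because the 345-base REVEILLE 8 cluster alone gave 283 FPKM in control and 112 in cold. The clusters whose Swissprot match is REVEILLE 6, which do not include it, rose from 1405 ± 30.8 to 4166 ± 44.2 normalized CPM.

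REVEILLE 6 isoform X2 of *Sesamum indicum* took more counts than any other member in cold. Its 7 clusters summed to 512, 558 and 475 normalized CPM in control and to 2228, 2224 and 2172 in cold. The cold libraries were within a narrow range and well above control. The sum rose by 2.10 ± 0.06 on the log2 scale (adjusted p = 2.08e-08, edgeR). Per length it was at 15.6 ± 1.23 FPKM in control and 48.7 ± 1.09 in cold. Of the 7 clusters, 6 were tested, 4 rose and none fell.

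Its leading cluster in both groups was Cluster-14918.98461 (2639 bases), at 324, 415 and 323 normalized CPM in control and 1479, 1416 and 1377 in cold. It rose by 2.01 ± 0.12 on the log2 scale (adjusted p = 8.26e-05, edgeR) and held 59.9% to 69.3% of the counts of the match in control and 64.9% to 68.0% in cold. Unlike the LHY match, this one kept its leading cluster at a like share in all 6 libraries. Cluster-14918.138954 was at 102, 79.5 and 62.5 in control and 459, 394 and 379 in cold, and rose by 2.33 ± 0.22 on the log2 scale (adjusted p = 0.000507, edgeR). Cluster-14918.137909 was at 6.24, 5.75 and 1.21 in control and 70.1, 97.2 and 125 in cold. Its log2 fold change was 4.53 ± 0.73 (adjusted p = 0.00423, edgeR), and its pooled normalized counts were 22.6 times those in control, with a 95% counting interval of 13.4 to 41.1.

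REVEILLE 6-like isoform X2 of *S. indicum* had the largest rise of the 3 REVEILLE 6 sums. Its 6 clusters summed to 131, 132 and 170 normalized CPM in control and to 898, 928 and 973 in cold. The groups were far apart. The sum rose by 2.69 ± 0.10 on the log2 scale (adjusted p = 1.06e-07, edgeR), and FPKM went from 8.79 ± 1.41 to 42.0 ± 1.97.

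Within this match the leading cluster changed. Cluster-14918.162383 (1247 bases) was at 90.2, 93.4 and 125 normalized CPM in control and 211, 201 and 289 in cold, and rose by 1.18 ± 0.23 on the log2 scale (adjusted p = 0.00863, edgeR). Cluster-14918.23581 (1347 bases) was at 0.291, 17.0 and 0 in control and 454, 432 and 492 in cold. It rose by 6.26 ± 1.32 on the log2 scale (adjusted p = 0.0114, edgeR), and by 11.62 without control replicate 2, which held nearly all of its control counts. The longer cluster held between 48.1% and 51.8% of the counts of the match in cold, and the shorter one went from at least 65.5% to at most 30.4%. Both have the same score against the best match and a coding stretch that begins 97 bases from the 5′ end, and the 100 extra bases of the longer one lie behind the coding stretch. Cluster-14918.72875 was at 32.0, 25.8 and 26.9 in control and 197, 135 and 127 in cold, and rose by 2.43 ± 0.28 on the log2 scale (adjusted p = 0.00118, edgeR).

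REVEILLE 6 isoform X1 of *S. indicum*, by name perhaps an isoform of the same protein as isoform X2, changed least of the 3. Its 6 clusters summed to 744, 737 and 741 normalized CPM in control and to 1042, 1099 and 1078 in cold. The groups did not overlap, and the log2 fold change was 0.53 ± 0.04 (adjusted p = 9.62e-06, edgeR). It was 0.17 with whole-library totals, where the adjusted p was 0.00605, and 0.14 by limma on log2(FPKM + 1), where the adjusted p was 0.111 and the call was lost. Per length it was the most abundant REVEILLE 6 match, at 76.8 ± 3.23 FPKM in control and 84.7 ± 1.80 in cold. Its leading clusters were Cluster-14918.137910 in control, at 306, 270 and 262 normalized CPM against 344, 380 and 395 in cold, and Cluster-14918.127371 in cold, at 394, 415 and 384 against 184, 231 and 286 in control. Their log2 fold changes were 0.42 ± 0.11 (adjusted p = 0.0271, edgeR) and 0.77 ± 0.18 (adjusted p = 0.0163, edgeR). The first lost its call without control replicate 2 or 3 or cold replicate 2 or 3, at adjusted p of 0.0688 to 0.0871, and with whole-library totals, at 0.252. The second lost its call without control replicate 2, at adjusted p of 0.0517, and with whole-library totals, at 0.0511. Cluster-14918.74473 rose from 35.1 ± 2.22 to 118 ± 14.5 (1.74 ± 0.24, adjusted p = 0.00225, edgeR). Cluster-14918.74472 (152 ± 29.1 in control, 92.2 ± 25.3 in cold) and Cluster-14918.108753 (83.1 ± 6.30 and 56.2 ± 9.56) were lower in cold without overlap. Neither of them was called, at adjusted p of 0.0998 and 0.12 by edgeR.

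REVEILLE 8 of *Vitis vinifera* was the exception of this group. Its single cluster, Cluster-14918.116924, is coding over all of its 345 bases, so it is a piece of a transcript. Its level as a sum was 399, 422 and 485 normalized CPM in control and 256, 266 and 233 in cold. No cold library reached the lowest control library. It fell, with a log2 fold change of the sum of -0.79 ± 0.10 (adjusted p = 0.000168, edgeR), and that of the cluster in its own fit was -0.92 ± 0.12 (adjusted p = 0.00183, edgeR).

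REVEILLE 4-like of *S. indicum* was rare, and is outside the 12 matches with the highest sums. Its single cluster, Cluster-21628.0, had 1, 1 and 3 counts in control and 14, 15 and 12 in cold. As a sum it was at 0.921, 0.751 and 2.38 normalized CPM in control and 21.3, 23.0 and 16.8 in cold. The ratio of the pooled normalized counts of the sum was 14.9, with a 95% counting interval of 5.89 to 48.3. The log2 fold change was 3.78 ± 0.62 (adjusted p = 0.000816, edgeR), and 4.40 without control replicate 3.

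The output-type REVEILLEs, 18 clusters of 6 best matches named or matched to REVEILLE 1, 2 or 7, were lower in cold as a group. Their summed level was 617, 623 and 643 normalized CPM in control and 546, 549 and 500 in cold, without overlap. In FPKM it was 153 ± 12.6 in control and 69.3 ± 15.1 in cold, a larger difference than in normalized CPM, with much of the FPKM on the short clusters described below. Only 8 of the 18 clusters were tested, and 1 of these fell and none rose.

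REVEILLE 7-like isoform X1 of *S. indicum* was at 231, 191 and 222 normalized CPM in control and 140, 144 and 138 in cold, summed over 3 clusters. All cold libraries were below control. The sum fell by 0.61 ± 0.11 on the log2 scale (adjusted p = 0.00163, edgeR). REVEILLE 7-like isoform X2, a single 435-base cluster, was at 166, 149 and 164 in control and 104, 145 and 102 in cold. Its log2 fold change was -0.45 ± 0.16 (adjusted p = 0.0354, edgeR), and cold replicate 2 lay just under the lowest control library. The call was lost without control replicate 1 or 3 or cold replicate 1 or 3, at adjusted p of 0.0927 to 0.108, and with RLE factors, at 0.0796. As a cluster in the cluster fit it was not called, at -0.58 ± 0.20 (adjusted p = 0.061, edgeR), but was called without cold replicate 2 (adjusted p = 0.024, edgeR) and by DESeq2 (adjusted p = 0.0283).

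REVEILLE 2-like isoform X1 of *S. indicum*, with 7 clusters, was at 156, 217 and 210.5 normalized CPM in control and 130, 140 and 156 in cold. The highest cold library lay next to the lowest control library. The log2 fold change was -0.46 ± 0.16 (adjusted p = 0.0285, edgeR), and the call was lost without control replicate 2 or 3 or cold replicate 1 or 2, at adjusted p of 0.0735 to 0.0936, and with RLE factors, at 0.0597. Its leading cluster, Cluster-14918.121067, was at 87.2, 134 and 105 in control and 66.5, 56.3 and 47.7 in cold, with a log2 fold change of -0.93 ± 0.28 (adjusted p = 0.0385, edgeR). That call was lost without control replicate 2 or 3 or cold replicate 2 or 3, at adjusted p of 0.0758 to 0.127.

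The 3 remaining matches were low and uneven between replicates. REVEILLE 1-like isoform X2 of *Nicotiana tomentosiformis* summed to 54.9, 10.3 and 39.8 normalized CPM in control and 44.9, 90.0 and 67.4 in cold, with overlap (log2 fold change 0.94 ± 0.56, adjusted p = 0.165, edgeR). An uncharacterized protein of *Nicotiana sylvestris* was at 0, 50.1 and 0 in control and 123, 0.0153 and 15.4 in cold (log2 fold change 1.43 ± 1.78, adjusted p = 0.493, edgeR). The value of the latter rested on single libraries: it was 8.34 without control replicate 2 (adjusted p = 0.0495, edgeR) and -1.08 without cold replicate 1. REVEILLE 1-like isoform X1 of *N. tomentosiformis* did not pass the filter on low counts. Among its clusters Cluster-14918.75636 had no reads in control and 1.44, 6.59 and 7.58 counts in cold. The difference was 8.54-fold with control set to a floor of 3 counts over the group, and the 95% counting interval of the ratio began at 6.40. Cluster-14918.135322 of the same match went the other way, with 1.80, 7.06 and 5.14 counts in control and 1.13, 0 and 0 in cold. The match summed to 7.72, 5.30 and 6.95 normalized CPM in control and 3.92, 29.5 and 21.7 in cold, with overlap.

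In 3 pairs of clusters of like length and annotation, the sum was more even between replicates than the clusters were. These pairs were chosen after their values were seen and are described without a test. Cluster-14918.135323 and Cluster-14918.135324 of the REVEILLE 7-like isoform X1 match differ by 61 bases, all of them behind the coding stretch. The longer one was at 183, 90.9 and 161 normalized CPM in control and 2.66, 80.4 and 80.0 in cold. The shorter one was at 53.4, 102 and 67.3 in control and 130, 51.9 and 53.5 in cold. Their sum in cold, by contrast, was 132, 132 and 134, below the 236, 193 and 228 of control.

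Cluster-14918.105291 and Cluster-14918.135318, the leading clusters of REVEILLE 1-like isoform X2 and of the *N. sylvestris* match, also differ by 61 bases behind the coding stretch. The first was absent from control replicate 2, the one control library in which the second had reads. The pair summed to 57.9, 53.8 and 42.6 normalized CPM in control and 147, 87.0 and 80.8 in cold, without overlap, whereas each cluster alone overlapped between the groups. Cluster-14918.105323 and Cluster-14918.119227 of the *E. guttata* match differ by 64 bases in front of the coding stretch. The first was at 0, 0 and 20.4 in control and 120, 0 and 36.5 in cold, and the second at 125, 121 and 82.9 in control and 0, 131 and 87.6 in cold. Their sum came to 125, 121 and 103 in control against 120, 131 and 124 in cold, with overlap. Whether plants or the counting divided these reads was not tested.

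**Figure D3:**
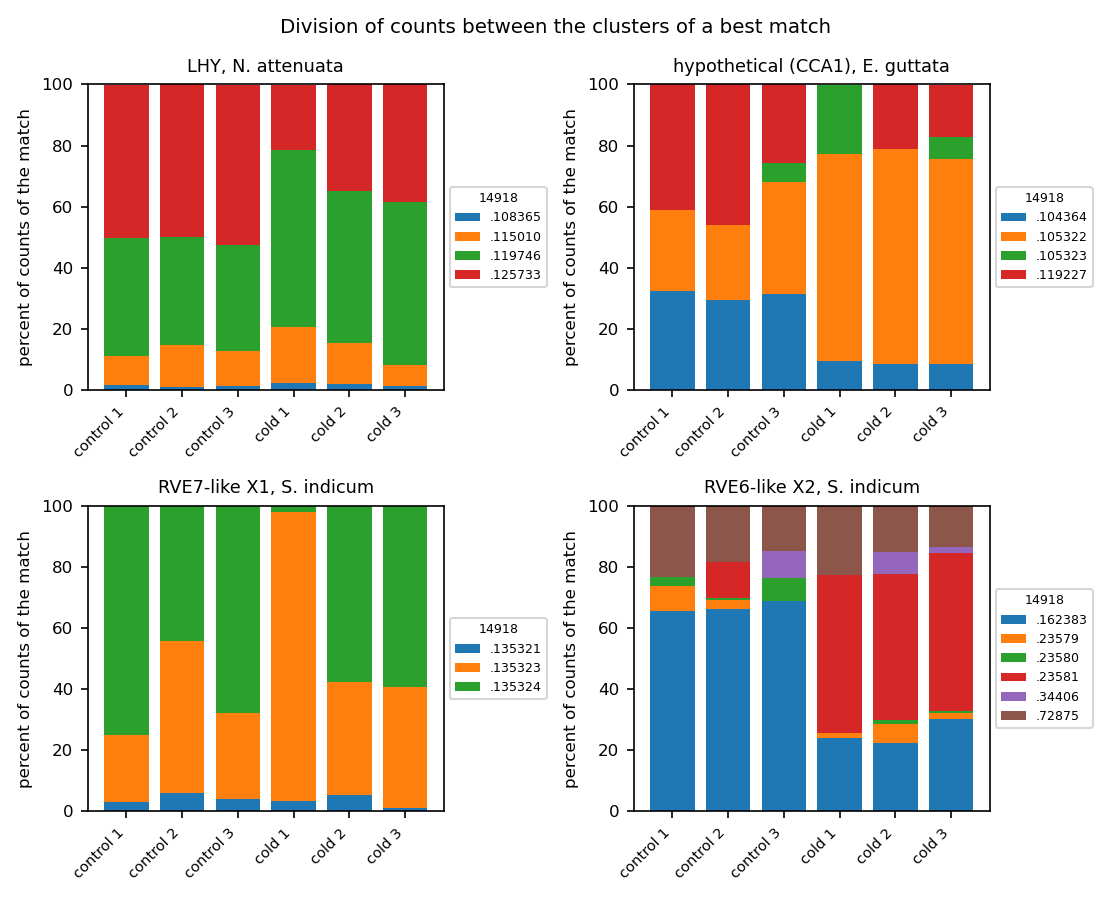
Share of the counts of a best match, in percent, held by each of its clusters in each of the 6 libraries, for 4 best matches. In LHY of *N. attenuata* and REVEILLE 6-like isoform X2 the leading cluster differs between all control and all cold libraries, while Cluster-14918.105322 leads the E. guttata match in cold and in control replicate 3. In REVEILLE 7-like isoform X1 the division differs between libraries of 1 group, with cold replicate 1 apart from the others.

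Short clusters limit the comparison of levels per length. Of the 48 members, 5 are under 500 bases, from 212 bases, while the FPKM values of the 6 libraries were fitted by subtracting 232 to 250 bases from the length. The shortest cluster of REVEILLE 7-like isoform X1 was at 7.77, 12.1 and 9.32 normalized CPM in control but had a mean of 59.0 FPKM, most of the 75.7 ± 12.4 FPKM of that match. Leaving aside REVEILLE 8 and both REVEILLE 7-like isoforms, whose FPKM rest mainly on short clusters, the order in control by FPKM was LHY of *N. attenuata*, REVEILLE 6 isoform X1, LHY of *G. arboreum*, REVEILLE 2-like, REVEILLE 6 isoform X2, the *E. guttata* match and REVEILLE 6-like isoform X2. The other 4 matches were at 2.54 FPKM or less in control. REVEILLE 2-like (18.4 ± 3.45) and REVEILLE 6 isoform X2 (15.6 ± 1.23) lay within their spread of each other, as did the *E. guttata* match (8.96 ± 0.95) and REVEILLE 6-like isoform X2 (8.79 ± 1.41). In cold REVEILLE 6 isoform X1, REVEILLE 6 isoform X2 (48.7 ± 1.09) and REVEILLE 6-like isoform X2 (42.0 ± 1.97) followed LHY of *N. attenuata*, and LHY of *G. arboreum* had gone from 52.8 ± 4.50 to 11.2 ± 1.20.

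The other clock genes of the table and the outputs listed with them were more often higher than lower in cold, some of them by more than the sum of any member match. A list of pseudo-response regulators, evening complex genes, CBF genes and cyclic dof factors found 47 best matches. The 37 tested had a median log2 fold change of 0.95, against -0.08 over all sums. Of these 37, 21 rose, 12 fell and 4 were not called. Without the 6 matches found by the name of a fungal protein alone, 21 of 34 tested rose, 11 fell and 2 were not called. CBF matches and cyclic dof factors, taken as outputs, made up 6 and 3 of the 21 and 4 and 3 of the 11. Over all sums tested, 34.6% were called higher and 37.7% lower, shares that also stand beside the counts by gene below. No match was found under the names ELF3, ELF4, CHE or LNK.

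The pseudo-response regulators that repress LHY and CCA1 in Arabidopsis were higher in cold. APRR9 of *S. indicum* was at 43.3, 48.8 and 43.4 normalized CPM in control and at 7157, 7218 and 7222 in cold (log2 fold change 7.31 ± 0.05, adjusted p = 1.49e-11, edgeR). APRR5 of *S. indicum* went from 85.2 ± 2.10 to 12247 ± 68.5 (7.17 ± 0.03, adjusted p = 4.12e-12, edgeR). Both were low in all control libraries and high in all cold ones. A hypothetical protein of *E. guttata* found as APRR7 went from 419 ± 32.1 to 3718 ± 273 (3.14 ± 0.07, adjusted p = 7.56e-09, edgeR), and APRR3 of *S. indicum* from 4.04 ± 4.41 to 1057 ± 159 (7.97 ± 0.31, adjusted p = 1.39e-07, edgeR). The groups did not overlap for any of these genes, which was also so for 77.8% of all sums tested.

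TOC1, the classical target of LHY and CCA1, differed little in its leading match and by more in others. APRR1 isoform X1 of *S. indicum* was at 557, 542 and 540 normalized CPM in control and 467, 526 and 411 in cold (log2 fold change -0.23 ± 0.09, adjusted p = 0.0453, edgeR). That call was lost with DESeq2 (adjusted p = 0.169), with RLE factors (0.187), with a stricter filter (0.0865) and without any 1 library other than cold replicate 2 (0.0904 to 0.15). The 5 tested matches that name APRR1 without a fungal name divided into 3 higher and 2 lower, with log2 fold changes from -1.53 to 2.84. The highest was that of APRR1 isoform X2 of *S. indicum*, from 38.1 ± 12.7 to 275 ± 18.6 normalized CPM (adjusted p = 8.22e-06, edgeR). Isoform X1 went from 546 ± 9.36 to 468 ± 57.5. By name X1 and X2 may be isoforms of 1 protein, so reads of 1 gene may be divided between them. The 3 higher and 2 lower may thus hold 1 gene on both sides, and X1 and X2 were not tested together. The lowest was that of another APRR1 match of *S. indicum*, from 209 ± 4.64 to 71.9 ± 7.60 (adjusted p = 1.22e-05, edgeR). For LUX or PCL1, part of the evening complex, the match with the highest mean sum was an uncharacterized protein of *S. indicum*, which went from 600 ± 52.2 to 1153 ± 14.2 (0.95 ± 0.07, adjusted p = 4.59e-06, edgeR). Of the 7 tested matches found by these names, 5 rose and 2 fell. The names were found on only 4 of the 6 clusters of that leading match and 7 of the 10 of a GLK2 match. For other uncharacterized matches of *S. indicum* they were found on 1 of 5, 2 of 3 and 2 of 4 clusters. The matches named for these genes themselves went opposite ways, and were singled out after their values were seen. LUX of *S. indicum* went from 114 ± 1.85 to 900.5 ± 28.1 (2.98 ± 0.06, adjusted p = 3.6e-09, edgeR), and PCL1-like of *S. indicum* from 789 ± 39.8 to 393 ± 27.9 (adjusted p = 4.73e-06, edgeR).

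Among the outputs, the CBF match with the highest mean sum, a DREB1B-like protein of *S. indicum*, was at 44.2, 28.5 and 42.8 normalized CPM in control and 4375, 4616 and 4579 in cold (log2 fold change 6.89 ± 0.09, adjusted p = 4.18e-10, edgeR). CBF proteins switch on cold-response genes, and of the 10 tested matches 6 rose and 4 fell. Of the cyclic dof factors, which repress flowering genes, cyclic dof factor 2-like of *S. indicum* went from 3067 ± 51.3 to 2478 ± 182 (-0.31 ± 0.05, adjusted p = 0.000989, edgeR), and the 8 tested matches divided into 3 higher, 3 lower and 2 not called. With whole-library totals the list had 18 higher and 13 lower.

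**Figure D4:**
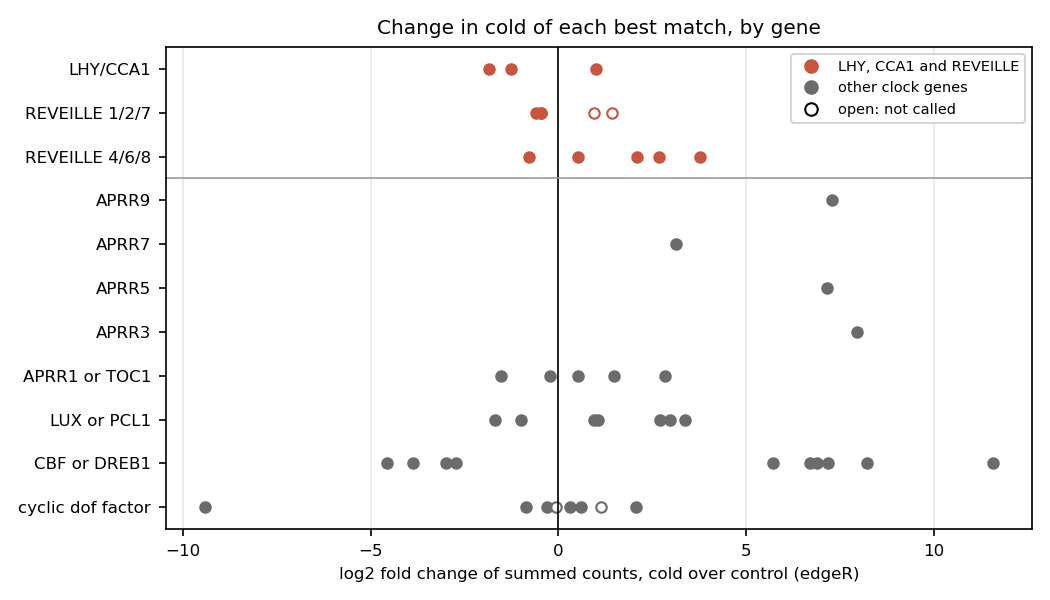
Log2 fold change of summed counts, cold over control, of each tested best match, by gene, without the matches found by a fungal name. Filled points passed an adjusted p of 0.05 and open points did not. The sums of the member matches lie between -1.84 and 3.78, while APRR9, APRR5 and APRR3 lie above 7.

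The best matches outside the members whose pattern over the 6 libraries was most like that of LHY of *N. attenuata* were a protein named DNA ligase 1 isoform X1, placed in the MYB family, probable WRKY transcription factor 17, and MYB5-like repressor, all of *S. indicum*. Likeness was the root mean square difference of centred log2 CPM, which was 0.0213, 0.0326 and 0.0392. Their log2 fold changes were -1.25, -1.26 and -1.28. With 2 groups in the data, such likeness rests mainly on a like difference between the groups.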

How the data were processed

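The authors deposited 1 table of 10251 lines for 9740 clusters in 80 families, made from leaf RNA of 6 libraries. The table gives estimated counts, deposited by the authors without scaling and often not whole, which were rounded here. The FPKM deposited by the authors are scaled to cluster length and whole-library reads. The scores deposited by the authors grade each NR match. The submitters' processing notes name Bowtie2 2.0.6 and TopHat2 2.0.12. The assembler and the counting program were not given in the sources used here. Columns with the authors' log2 ratio, q value and direction were not used.

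Clusters, and counts summed over clusters with the same NR match, were tested with edgeR 4.0.16 (quasi-likelihood, TMM, filterByExpr with a minimum count of 10, a model with condition alone) in R 4.3.3, with Benjamini-Hochberg adjustment over all 5004 clusters or 2296 sums and a threshold of 0.05. The biological coefficient of variation was 0.639 for clusters and 0.157 for sums. Standard errors were obtained by dividing the log2 fold change by the root of F. Fits were tested on simulated data. With 3 libraries against 3, an exact permutation test of 1 value cannot go below 0.1. Intervals and floors cover counting error only.

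The members, lists and tests were chosen with earlier results of these data known. Named were the 12 matches with the highest mean sums, their leading clusters in each group, up to 5 clusters per direction with the largest called change without overlap, the leading match of each clock gene and the 3 matches most like the top member. Other items were named after their values were seen. Alternatives were DESeq2 1.42.0, RLE factors, table and whole-library totals, no or a stricter filter, limma 3.58.1 on log2(FPKM + 1) and log2(FPKM + 0.1), a replicate block, each library left out, a threshold of 0.01, changes of at least 1 on the log2 scale, membership by 1 annotation and sums by Swissprot match. Sequences, qRT-PCR and physiology were not analysed here.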

Additional observations from a re-analysis of the deposited data

How the results depend on the processing

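For the 13 tested sums, 179 of 194 recalculated values kept direction and side of the threshold, 13 lost and 1 gained a call and 1 reversed. For the 23 clusters named as leading or most changed the numbers were 293 of 344 kept, 35 lost, 6 gained and 10 reversed. For the leading match of each clock gene and the 3 matches most like the top member, 11 in all, 156 of 165 were kept. The 9 lost were all of APRR1 isoform X1. The count of 7 member clusters lower in cold became 4 without a filter, 11 by limma with either pseudocount, 4 at an adjusted p under 0.01 and 3 at a log2 fold change of at least 1. It was 4 to 6 with each library left out, while the 12 higher became 9 to 12. With whole-library totals 9 were higher and 10 lower. All clusters tested also shifted towards lower, from 1094 higher and 1182 lower to 950 and 1366 with whole-library totals. By limma all clusters came to 1194 higher and 1759 lower with a pseudocount of 1, and to 1111 and 1612 with 0.1. Of the sums, 2 were lower at a log2 fold change of at least 1 (4 higher), and summing by Swissprot match gave 2 higher and 3 lower, where 1 of the 2 holds mostly clusters that are not members.

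Same-numbered libraries did not deviate together (correlations -0.030, -0.014 and -0.005 over clusters), so the numbers do not pair them. With a replicate block 7 member clusters were higher and 4 lower, over all clusters 640 and 671 in place of 1094 and 1182, and the member sums were 5 higher and 5 lower. The block ended the calls of Cluster-21628.0 (adjusted p = 0.0704, edgeR) and Cluster-14918.23581 (0.0556), and of the sums of REVEILLE 7-like isoform X2 (0.0722) and APRR1 isoform X1 (0.0665), among others.

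The reversed values were all uncalled. Cluster-14918.135323 was -0.0709 with table totals, -0.16 with whole-library totals, -0.0025 without a filter, -0.22 and -0.27 by limma with pseudocounts of 1 and 0.1, -0.022 with the replicate block, and -0.46 (without cold replicate 1) to 0.38 (without control replicate 2) with single libraries left out. With single libraries left out, Cluster-14918.119227 ranged from -1.32 to 0.0273, Cluster-14918.135318 from -1.23 to 8.28 and the *N. sylvestris* sum from -1.08 to 8.34, where its adjusted p was 0.0495 by edgeR. Why these values moved was not tested. Low counts kept 13 members out of the test. By edgeR 21 of the 35 tested member clusters had an unadjusted p under 0.05, beside 2642 of all 5004 clusters tested.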
